A study of Homo sapiens with 22 samples.

Results

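PC9-GR2 (GR2) is a derivative of PC9, an established human lung adenocarcinoma line with an activating EGFR mutation, and the values below compare how GR2 and parental PC9 changed their polyadenylated RNA under the EGFR inhibitor WZ4002. For each gene the WZ4002 response is the mean log2(CPM + 1) of the drug-treated libraries minus that of the vehicle-treated libraries, where CPM gives read counts relative to the size of each library. The measure followed here is the response of GR2 minus the response of parental cells. It was computed from 8 of the 22 libraries of the series: 2 of GR2 under WZ4002, 2 of GR2 under vehicle, 2 of parental PC9 under WZ4002 and 2 of parental PC9 under vehicle. The drug was given for 24 h at 1 mM according to the labels, although such inhibitors are commonly given to cells at micromolar doses, and the unit is in doubt. The labels call GR2 a PC9 derivative without saying how it was made or whether it is a single clone, and they do not say whether the libraries of a group came from separate cultures. The p-values below therefore reflect no more than the variation among the sequenced libraries, part of which may be technical.

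EGFR is a receptor tyrosine kinase whose activated form feeds the RAS-ERK and PI3K-AKT pathways. ERK activity sustains transcripts of feedback phosphatases, of Sprouty and ETS proteins and of AP-1 subunits, and AKT keeps FOXO factors out of the nucleus, so inhibition of the receptor is known to lower the ERK-dependent genes and to raise FOXO targets and the pro-apoptotic BIM. WZ4002 binds mutant EGFR covalently and was designed to keep its activity against the gatekeeper mutation that blocks gefitinib.

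The 8 libraries held 28.2 to 49.6 M reads, recovered from the steps of the deposited CPM. The SD between the libraries of a pair, on the log2 scale, was 0.223 in WZ4002-treated GR2, 0.10 in vehicle-treated GR2, 0.325 in WZ4002-treated parental and 0.214 in vehicle-treated parental cells. A chi-square of the recovered reads gave 3.77 (vehicle-treated GR2) to 72.9 (WZ4002-treated parental cells) per gene within pairs, more than sampling noise. Every library was counted as a sample, although this spread does not show that the libraries came from separate cultures. All 5 epithelial markers (EPCAM, CDH1, KRT8, KRT18 and KRT19) were present at 135 CPM or more. None of the 5 leukocyte markers was in the table. The table holds no value of 0, so a missing gene is not shown to be absent from these libraries. The 2 of 3 endothelial markers listed, VWF and CDH5, summed to 4.69 to 15.3 CPM, and the 4 of 5 fibroblast markers listed summed to 7.89 to 12.8 CPM, nearly all of it COL1A1. In bulk RNA, fewer cells of a kind and less RNA per cell cannot be told apart.

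Of 15485 genes tested, 1051 (6.79%) had a response that differed between GR2 and parental cells (limma, Benjamini-Hochberg adjusted p below 0.05, hereafter called). The difference was positive in 517 genes (3.34%), meaning that WZ4002 raised the gene more, or lowered it less, in GR2 than in parental cells, and negative in 534 (3.45%). In 660 of the 1051 it was at least 2-fold. The responses themselves were wider: 8618 genes (55.7%) changed under WZ4002 in GR2, 27.4% of all tested upward and 28.3% downward, and 7348 (47.5%) changed in parental cells, 25.1% upward and 22.3% downward. Across genes the 2 responses had a Pearson r of 0.84, a description over genes that share libraries. Leaving out 1 library moved the count of called differences to between 328 (without vehicle-treated GR2 replicate 1) and 1266 (without WZ4002-treated parental replicate 1). It was 693 without WZ4002-treated GR2 replicate 1, 484 without replicate 2 of that group, 449 without vehicle-treated GR2 replicate 2, 604 without vehicle-treated parental replicate 1, 550 without replicate 2 of that group and 855 without WZ4002-treated parental replicate 2. The columns of the deposited table fall into 3 runs in which the groups repeat, and both vehicle-treated GR2 libraries stand in the last run. The vehicle-treated parental and the WZ4002-treated GR2 libraries stand in runs 1 and 2, and the WZ4002-treated parental ones in runs 2 and 3. Vehicle-treated GR2 thus shared no run with vehicle-treated parental cells or with WZ4002-treated GR2. Within these groups a difference of population or treatment cannot be told apart from one of run. What a run stands for is not given in the labels. A fit with a term for the run called 338 genes, 220 of them among the 1051, and the part of the runs in the differences was not otherwise tested. With limma-voom on the recovered reads 584 differences were positive and 308 negative (65.5% positive, against 49.2% in the fit on log2(CPM + 1)).

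**Figure D1:**
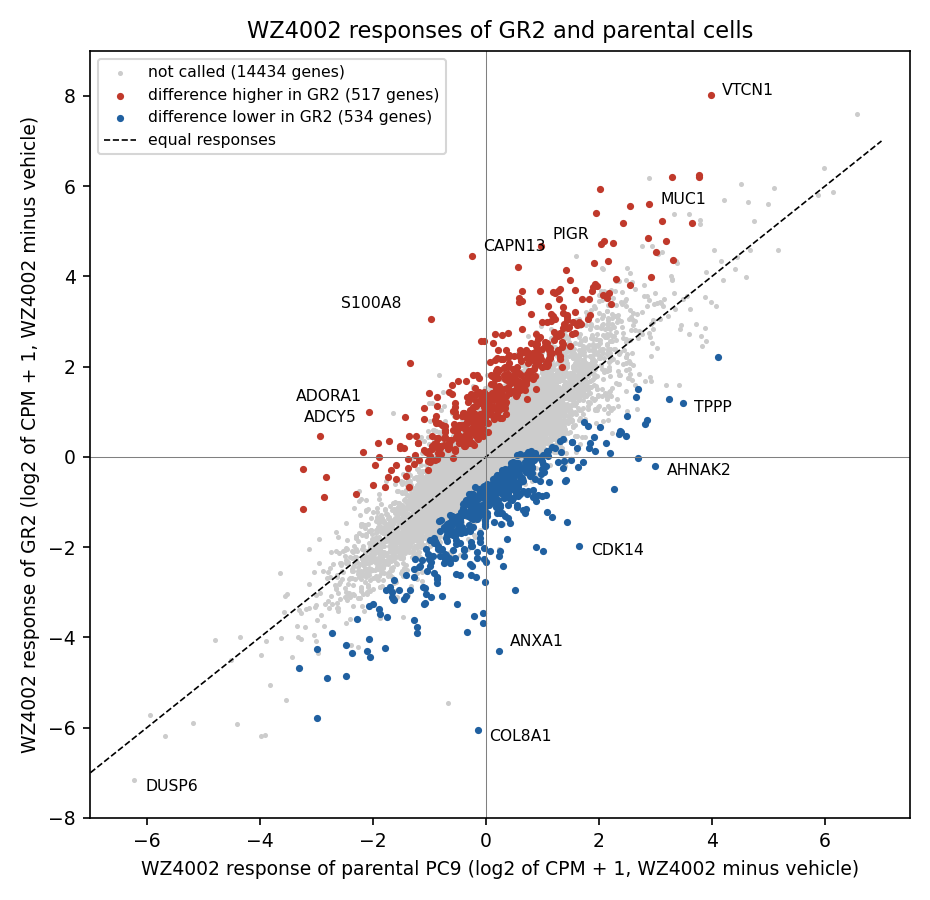
WZ4002 response of GR2 (y) against that of parental PC9 (x), each as log2(CPM + 1) under WZ4002 minus vehicle, for 15485 genes, each a point. Red points are the 517 genes with a called positive difference and blue points the 534 with a called negative one. Grey points are not called, and the dashed line marks equal responses. COL8A1 and ANXA1 lie at the bottom with a parental response near 0, and VTCN1 lies at the top with a positive response in both.

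Because the difference of responses equals the GR2 minus parental difference under WZ4002 less the same difference under vehicle, each called gene was placed by the share that the vehicle libraries contribute. A share of at least 75% is called a difference at the vehicle level, a share of at most 25% a difference at the drug level, and the rest lie at both levels. The vehicle level held 418 of the 1051 genes (39.8%), the drug level 152 (14.5%) and both levels 481 (45.8%). The split depended on direction. Of the 534 negative differences 264 (49.4%) lay at the vehicle level and 69 (12.9%) at the drug level, and of the 517 positive ones 154 (29.8%) lay at the vehicle level and 83 (16.1%) at the drug level. The median vehicle share was 74.6% among negative and 57.2% among positive differences. In 180 genes the share was above 100% and in 49 below 0%, where the other level moved against the difference. A split of all genes tested is not given beside that of the called ones. Over all genes the vehicle difference was the wider too (SD 0.50, against 0.38 under WZ4002).

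Over all genes the 2 populations lay closer together under the drug than under vehicle, where they shared no column run. The SD over genes of the GR2 minus parental difference was 0.38 under WZ4002 and 0.50 under vehicle, and 877 genes (5.66%) passed the test of that difference under WZ4002, against 2591 (16.7%) under vehicle. Under WZ4002 2.8% of genes were higher and 2.87% lower in GR2, and under vehicle 8.98% were higher and 7.76% lower. The vehicle count was 769 to 2878 when 1 library was left out and 1449 with the column-run term, and the WZ4002 count was 312 to 1122 when 1 library was left out and 860 with that term. Among the 1051 called genes, 643 passed only the vehicle difference, 226 only the WZ4002 difference, 57 both in opposite directions, 9 both in the same direction and 116 neither. The responses had the same sign and were larger in GR2 in 533 called genes (50.7%), had the same sign and were smaller in GR2 in 67 (6.37%) and had opposite signs in 451 (42.9%). In 92 of those 451 both responses passed their own test, with GR2 rising and parental cells falling in 38 and the reverse in 54.

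**Figure D2:**
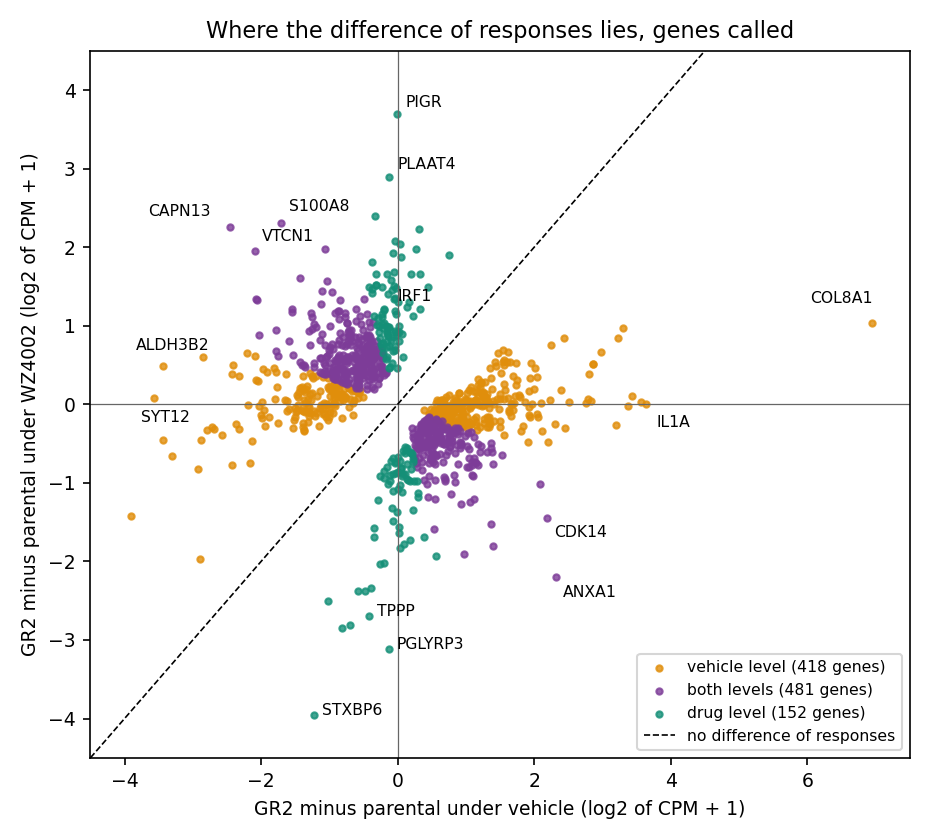
GR2 minus parental difference under WZ4002 (y) against the same difference under vehicle (x), in log2(CPM + 1), for the 1051 genes whose responses differed. Orange points are the 418 genes at the vehicle level, purple points the 481 at both levels and green points the 152 at the drug level. The dashed line marks no difference of responses. COL8A1 and IL1A stand to the right at the vehicle level and PIGR at the top at the drug level.

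The most negative differences at the vehicle level were genes that vehicle-treated GR2 cells carried and the other 3 groups held at low levels. COL8A1, a short-chain collagen of basement membranes, had 2.13 and 1.4 CPM under WZ4002 and 182 and 179 CPM under vehicle in GR2. In parental cells COL8A1 had 0.15 and 0.56 CPM under WZ4002 and 0.25 and 0.74 CPM under vehicle. Only vehicle-treated GR2 was high, and every library of the other groups was at or below 2.13 CPM. The difference of responses was -5.91 ± 0.49 (SE; adjusted p = 2.6e-05), from 6.94 ± 0.35 between the populations under vehicle and 1.03 ± 0.35 under WZ4002. IL1A, which encodes the alarmin cytokine interleukin-1 alpha, had 0.11 and 0.11 CPM under WZ4002 and 14.1 and 12.5 CPM under vehicle in GR2. Parental libraries had 0.06 and 0.15 CPM of IL1A under WZ4002 and 0.19 and 0.11 CPM under vehicle, so the groups other than vehicle-treated GR2 stayed at or below 0.19 CPM. The IL1A difference was -3.63 ± 0.35 (adjusted p = 5.7e-05), all of it at the vehicle level. GCKR, the regulator of glucokinase known from liver, had 0.18 and 0.06 CPM under WZ4002 and 12.1 and 11.9 CPM under vehicle in GR2 and 0.03 and 0.04 CPM under WZ4002 and 0.08 and 0.33 CPM under vehicle in parental cells, a difference of -3.32 ± 0.30 (adjusted p = 3.3e-05). NAV3, which encodes a microtubule-associated protein first described in neurons, had 0.04 and 0.11 CPM under WZ4002 and 11.9 and 9.73 CPM under vehicle in GR2. Its parental values were 0.12 and 0.06 CPM under WZ4002 and 0.22 and 0.05 CPM under vehicle, and the difference was -3.40 ± 0.39 (adjusted p = 0.00022). Each of these 4 genes was called in all 16 alternatives.

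IGFN1 and MAP2 had the same form. IGFN1, an immunoglobulin and fibronectin domain protein known from skeletal muscle, had 0.21 and 0.08 CPM under WZ4002 and 15.3 and 16.1 CPM under vehicle in GR2 and 0.03 and 0.21 CPM under WZ4002 and 0.25 and 0.6 CPM under vehicle in parental cells, a difference of -3.53 ± 0.48 (adjusted p = 0.00063). The IGFN1 call was lost with limma-voom on the recovered reads (adjusted p = 0.11). MAP2, a dendritic microtubule protein, had 6.1 and 2.01 CPM under WZ4002 and 36.8 and 32.8 CPM under vehicle in GR2. MAP2 in parental cells had 4.35 and 4.77 CPM under WZ4002 and 3.63 and 2.29 CPM under vehicle, close to the WZ4002-treated GR2 libraries, and the difference was -3.46 ± 0.59 (adjusted p = 0.0033). Its call was lost with the column-run term (adjusted p = 0.078). Such genes are low outside vehicle-treated GR2, and 61 of the 1051 called genes had a mean below 1 CPM under WZ4002 in both populations. Of these 61, 50 were negative and 49 lay at the vehicle level, and 38 were still called with a pseudocount of 0.1. The vehicle-level count follows largely from the selection, since means below 1 CPM leave little room for a difference under WZ4002. On the log2(CPM + 1) scale a fold change of a gene at such levels is understated.

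LAMA3 and IL1A are shown with the bases before their start because both carried the AP-1 motif there. A part of AP-1 in their responses was not tested. LAMA3 encodes the alpha chain of laminin-332, the basement membrane laminin of epithelia. It had 30.8 and 20.3 CPM under WZ4002 and 249 and 244 CPM under vehicle in GR2 and 35.1 and 16.3 CPM under WZ4002 and 55.4 and 48.1 CPM under vehicle in parental cells. Only vehicle-treated GR2 stood out, and the WZ4002-treated groups overlapped. The difference was -2.17 ± 0.38 (adjusted p = 0.0037), with 2.23 ± 0.27 under vehicle and 0.06 ± 0.27 under WZ4002, and it was called in all 16 alternatives. The 150 bases before the RefSeq start of each gene in GRCh38.p14, 5′ to 3′ on the gene's strand, are chr18:23872870-23873019 (+) for LAMA3 and chr2:112784494-112784643 (-) for IL1A, with matches to TGANTCA in capitals.
LAMA3: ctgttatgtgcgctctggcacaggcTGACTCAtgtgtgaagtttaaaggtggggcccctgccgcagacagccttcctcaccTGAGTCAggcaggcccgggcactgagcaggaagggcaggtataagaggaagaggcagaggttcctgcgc
IL1A: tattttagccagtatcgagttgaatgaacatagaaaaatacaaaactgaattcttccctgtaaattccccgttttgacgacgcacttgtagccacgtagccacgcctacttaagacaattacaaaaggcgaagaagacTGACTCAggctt
In these stretches LAMA3 held 2 matches, beginning 125 and 69 bases before the start, and IL1A held 1, beginning 12 bases before it. The motif was searched on both strands in the 250 bases before the start, and the matches of the letters are a description, not evidence of binding. Of 10717 tested genes with a promoter in the RefSeq table, 431 (4.02%) held the motif, against 11 of 200 (5.5%) of the genes called negative at the vehicle level. It was held by 15 of 203 (7.39%) of those called positive at both levels and 9 of 137 (6.57%) of those called negative at both levels, higher shares than in the class of LAMA3 and IL1A. The 2 genes were chosen after their values were seen.

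A positive difference at the vehicle level implies, by the rule of the class, lower values in vehicle-treated GR2 than in vehicle-treated parental cells. The 3 genes given here were the largest of the class with a group mean of at least 5 CPM. ALDH3B2, an aldehyde dehydrogenase, had 162 and 201 CPM under WZ4002 and 1.92 and 1.98 CPM under vehicle in GR2 and 144 and 115 CPM under WZ4002 and 27.2 and 35.02 CPM under vehicle in parental cells. The WZ4002-treated groups did not overlap but lay near each other, and vehicle-treated GR2 was far below vehicle-treated parental cells. The difference was 3.92 ± 0.44 (adjusted p = 0.00019), with -3.43 ± 0.31 under vehicle and 0.49 ± 0.31 under WZ4002 (adjusted p = 0.45 for WZ4002). SYT12, a synaptotagmin, had 50.3 and 100.1 CPM under WZ4002 and 2.58 and 3.18 CPM under vehicle in GR2 and 65.02 and 69.4 CPM under WZ4002 and 35.3 and 56.8 CPM under vehicle in parental cells, and vehicle-treated GR2 was below the other 6 libraries. Its difference was 3.65 ± 0.50 (adjusted p = 0.0007), with 0.08 ± 0.35 under WZ4002. CERS4, a ceramide synthase, had 126 and 135 CPM under WZ4002 and 1.84 and 2.41 CPM under vehicle in GR2 and 106 and 68.6 CPM under WZ4002 and 15.8 and 29.2 CPM under vehicle in parental cells, a difference of 3.46 ± 0.40 (adjusted p = 0.00024). ALDH3B2, SYT12 and CERS4 were each called in all 16 alternatives.

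Differences at the drug level were fewer, and the positive ones named here had low and close vehicle values in the 2 populations. PIGR, the receptor that carries polymeric IgA across epithelia, had 23.1 and 30.9 CPM under WZ4002 and 0.12 and 0.06 CPM under vehicle in GR2. Parental PIGR was 1.78 and 0.66 CPM under WZ4002 and 0.14 and 0.05 CPM under vehicle. The vehicle groups overlapped at or below 0.14 CPM, and both WZ4002-treated GR2 libraries were far above both WZ4002-treated parental ones. The difference was 3.69 ± 0.45 (adjusted p = 0.0003), all of it under WZ4002 (3.69 ± 0.32), and it was called in all 16 alternatives. PLAAT4, a retinoid-inducible phospholipase of the HRAS-like suppressor family, had 51.3 and 70.8 CPM under WZ4002 and 0.28 and 0.32 CPM under vehicle in GR2 and 3.8 and 13.2 CPM under WZ4002 and 0.42 and 0.41 CPM under vehicle in parental cells. The difference was 3.02 ± 0.60 (adjusted p = 0.0077), and the call was lost with limma-voom on the recovered reads (adjusted p = 0.12) and with the column-run term (adjusted p = 0.058). NFE2, a bZIP transcription factor best known in megakaryocytes and erythroid cells, had 13.1 and 15.8 CPM under WZ4002 and 0.18 and 0.23 CPM under vehicle in GR2 and 3.77 and 0.79 CPM under WZ4002 and 0.3 and 0.76 CPM under vehicle in parental cells. Both WZ4002-treated GR2 libraries were above the other 6. Its difference was 2.72 ± 0.54 (adjusted p = 0.0074), and the call was lost with the column-run term (adjusted p = 0.26).

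IRF1, interferon regulatory factor 1, is a transcription factor that drives antigen presentation genes, and its difference lay at the drug level. It had 81.8 and 87.4 CPM under WZ4002 and 5.71 and 5.62 CPM under vehicle in GR2. Parental libraries held 22.96 and 29.5 CPM of IRF1 under WZ4002 and 7.51 and 5.43 CPM under vehicle. The vehicle groups overlapped, and WZ4002 raised IRF1 in both populations (3.68 in GR2 and 1.87 in parental cells, log2). The difference of responses was 1.81 ± 0.32 (adjusted p = 0.0039), of which the vehicle libraries contributed 8.3%. The call was lost with the column-run term (adjusted p = 0.08).

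The negative differences named at the drug level were genes that WZ4002 raised in parental cells and raised less, or did not change past the test, in GR2. STXBP6, which encodes the SNARE-binding protein amisyn, had 0.07 and 0.03 CPM under WZ4002 and 0.08 and 0.06 CPM under vehicle in GR2 and 8.88 and 25.6 CPM under WZ4002 and 1.58 and 1.42 CPM under vehicle in parental cells. GR2 was at or below 0.08 CPM under both treatments, and the parental libraries were higher throughout. The difference was -2.73 ± 0.45 (adjusted p = 0.0025), and the populations differed by -3.95 ± 0.32 under WZ4002 and -1.22 ± 0.32 under vehicle, so the vehicle libraries moved against it. The STXBP6 call was lost with limma-voom on the recovered reads (adjusted p = 0.2) and with the column-run term (adjusted p = 0.18). PGLYRP3, a peptidoglycan recognition protein, had 0.14 and 0.25 CPM under WZ4002 and 0.91 and 1 CPM under vehicle in GR2 and 4.04 and 20.1 CPM under WZ4002 and 0.67 and 1.75 CPM under vehicle in parental cells, where the WZ4002-treated libraries differed widely. Its difference was -2.98 ± 0.65 (adjusted p = 0.012), and the call was lost without vehicle-treated GR2 replicate 1 (adjusted p = 0.053) and vehicle-treated parental replicate 1 (adjusted p = 0.058), in the fit of the 8 libraries alone (adjusted p = 0.078), with limma-voom on the recovered reads (adjusted p = 0.072) and with the column-run term (adjusted p = 0.49). TPPP, a tubulin polymerization promoter, had 1.45 and 3.67 CPM under WZ4002 and 0.54 and 0.4 CPM under vehicle in GR2 and 21 and 20.8 CPM under WZ4002 and 0.36 and 1.83 CPM under vehicle in parental cells, a difference of -2.28 ± 0.43 (adjusted p = 0.0057). WZ4002 raised TPPP in both populations, less so in GR2 (1.20 against 3.48, log2), and the call was lost at a pseudocount of 0.1 (adjusted p = 0.089), in the fit of the 8 libraries alone (adjusted p = 0.055), with limma-voom on the recovered reads (adjusted p = 0.12) and with the column-run term (adjusted p = 0.085).

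**Figure D3:**
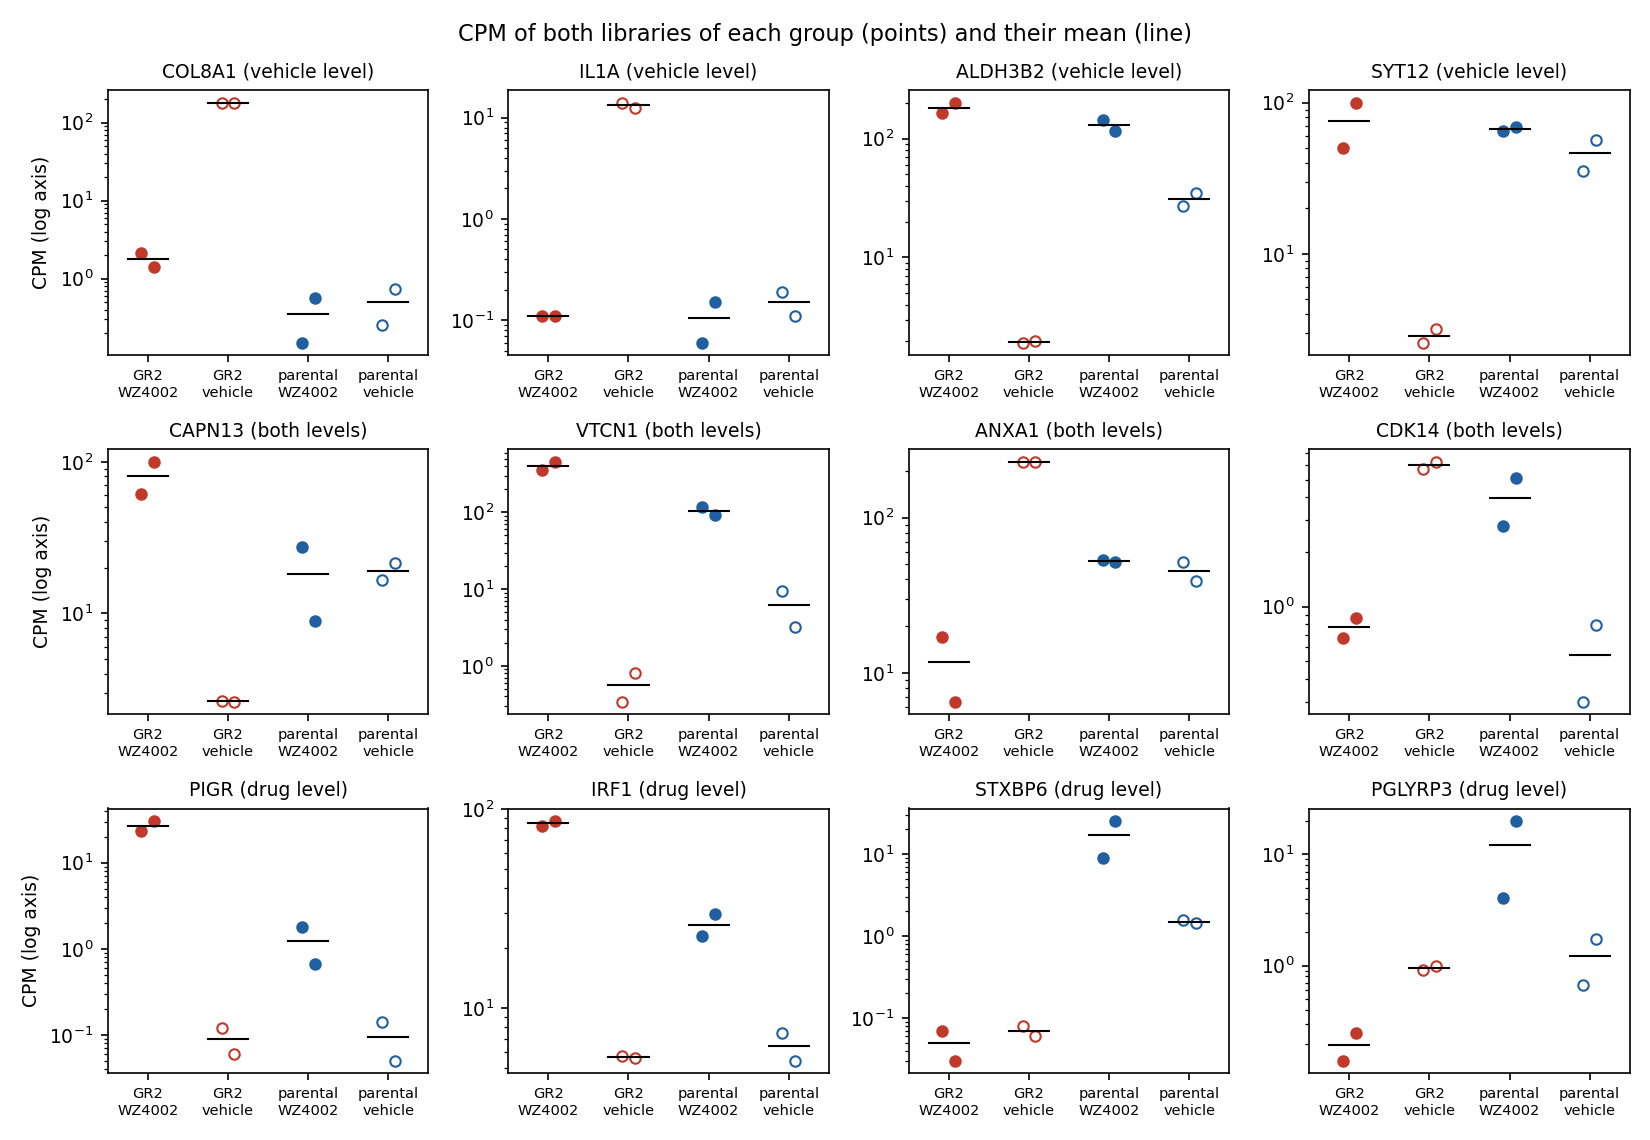
CPM of each library (points, log axis) and the group mean (line) for 12 genes. Groups from left to right are GR2 under WZ4002, GR2 under vehicle, parental under WZ4002 and parental under vehicle, with GR2 in red, parental in blue, WZ4002 filled and vehicle open. The upper row shows vehicle-level genes, where vehicle-treated GR2 stands apart. The middle row shows genes at both levels. The lower row shows drug-level genes, where WZ4002-treated GR2 and WZ4002-treated parental cells lie apart.

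The largest positive differences lay at both levels. CAPN13, a calpain protease, had 61.6 and 100.5 CPM under WZ4002 and 2.66 and 2.61 CPM under vehicle in GR2 and 27.2 and 8.92 CPM under WZ4002 and 16.5 and 21.5 CPM under vehicle in parental cells. The WZ4002-treated GR2 libraries were above all others, the vehicle-treated GR2 libraries below all others, and the parental groups overlapped. The difference was 4.70 ± 0.58 (adjusted p = 0.00033; 95% interval 3.47 to 5.94), from 2.25 ± 0.41 under WZ4002 and -2.45 ± 0.41 under vehicle. VTCN1, the checkpoint ligand B7-H4, had 353 and 461 CPM under WZ4002 and 0.34 and 0.8 CPM under vehicle in GR2. In parental cells VTCN1 had 117 and 91.1 CPM under WZ4002 and 9.31 and 3.25 CPM under vehicle. WZ4002 raised it in both populations, and GR2 lay above parental cells under WZ4002 and below them under vehicle. The difference was 4.04 ± 0.75 (adjusted p = 0.005), and the call was lost with the column-run term (adjusted p = 0.15). MUC1, a transmembrane mucin of secretory epithelia, had 196 and 209 CPM under WZ4002 and 3.35 and 2.98 CPM under vehicle in GR2 and 118 and 91.96 CPM under WZ4002 and 10.4 and 16.8 CPM under vehicle in parental cells, a difference of 2.73 ± 0.47 (adjusted p = 0.0033). CAPN13 and MUC1 were called in all 16 alternatives.

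In several genes the populations moved in opposite directions under WZ4002. S100A8, a calcium-binding subunit of calprotectin, had 25.7 and 31.5 CPM under WZ4002 and 2.18 and 2.98 CPM under vehicle in GR2 and 3.06 and 7.67 CPM under WZ4002 and 7.43 and 15.1 CPM under vehicle in parental cells. It rose in GR2 (3.05 ± 0.36, adjusted p = 5.5e-06) and fell in parental cells (-0.97 ± 0.36, adjusted p = 0.038), a difference of 4.02 ± 0.52 (adjusted p = 0.00042). SEMA6B, a transmembrane semaphorin, had 5.39 and 6.88 CPM under WZ4002 and 0.65 and 0.72 CPM under vehicle in GR2 and 2.2 and 1.47 CPM under WZ4002 and 6.37 and 5.84 CPM under vehicle in parental cells. The WZ4002-treated GR2 libraries thus overlapped the vehicle-treated parental ones, and the other groups were lower. The SEMA6B difference was 3.41 ± 0.29 (adjusted p = 2.6e-05). ADORA1, the adenosine A1 receptor, had 20.8 and 23.4 CPM under WZ4002 and 10.7 and 10.7 CPM under vehicle in GR2 and 7.22 and 5.95 CPM under WZ4002 and 29.4 and 31.8 CPM under vehicle in parental cells, a difference of 3.05 ± 0.45 (adjusted p = 0.0012) whose call was lost with the column-run term (adjusted p = 0.083). ADCY5, an adenylyl cyclase, had 7.56 and 10.2 CPM under WZ4002 and 5.83 and 6.4 CPM under vehicle in GR2, a response of 0.46 ± 0.33 that did not pass (adjusted p = 0.25). It fell in parental cells to 2.63 and 3.19 CPM under WZ4002, against 25.8 and 31.96 CPM under vehicle. The ADCY5 difference was 3.39 ± 0.47 (adjusted p = 0.00079).

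Opposite movement in the other direction was seen in CDK14, ZNF469 and GAS6. CDK14, a cyclin-dependent kinase that acts in WNT signalling, had 0.67 and 0.87 CPM under WZ4002 and 5.69 and 6.28 CPM under vehicle in GR2 and 2.79 and 5.08 CPM under WZ4002 and 0.3 and 0.79 CPM under vehicle in parental cells. Vehicle-treated GR2 and WZ4002-treated parental libraries were the high ones. CDK14 fell in GR2 (-1.98 ± 0.31) and rose in parental cells (1.65 ± 0.31), a difference of -3.64 ± 0.44 (adjusted p = 0.00029). ZNF469, a zinc-finger protein known for its part in corneal structure, had 1.99 and 4.76 CPM under WZ4002 and 18.4 and 15.04 CPM under vehicle in GR2 and 5.2 and 10.3 CPM under WZ4002 and 2.19 and 4.39 CPM under vehicle in parental cells, a difference of -3.11 ± 0.45 (adjusted p = 0.00085). The ZNF469 call was lost with the column-run term (adjusted p = 0.071). ANXA1, the phospholipid-binding protein annexin A1, had 17.1 and 6.52 CPM under WZ4002 and 227 and 229.7 CPM under vehicle in GR2 and 53.02 and 52.03 CPM under WZ4002 and 51.4 and 39 CPM under vehicle in parental cells. The parental response of ANXA1 did not pass (0.22 ± 0.46, adjusted p = 0.71), while it fell in GR2 (-4.30 ± 0.46, adjusted p = 1.7e-06), and the difference was -4.52 ± 0.65 (adjusted p = 0.00085). AHNAK2, a large scaffold protein, had 5.32 and 4.48 CPM under WZ4002 and 5.99 and 5.6 CPM under vehicle in GR2. AHNAK2 rose in parental cells to 12.7 and 29.8 CPM under WZ4002, against 1.75 and 1.42 CPM under vehicle, and the difference of -3.20 ± 0.67 (adjusted p = 0.01) was lost with the column-run term (adjusted p = 0.28). CDK14 and ANXA1 were called in all 16 alternatives. The differences of CDK14, ZNF469, ANXA1 and AHNAK2 lay at both levels.

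ERK output genes fell under WZ4002 in both populations. Of 19 tested, 17 fell in GR2 (28.3% of all genes did) and 18 in parental cells (22.3% of all genes did). EPHA2 had a called difference, at both levels, and 1 of 19 is near the 6.79% of all genes. In the fit of the 8 libraries alone 3 members were called. The list's median difference was -0.23 (all genes -0.04), and with the column-run term it was 0.62. DUSP6, the ERK phosphatase used as a readout of the pathway, had 0.6 and 1.29 CPM under WZ4002 and 276 and 267 CPM under vehicle in GR2 and 0.43 and 0.44 CPM under WZ4002 and 110.3 and 103 CPM under vehicle in parental cells. Under WZ4002 both populations lay near the floor, and under vehicle GR2 was 1.34 ± 0.41 higher (adjusted p = 0.037). The DUSP6 difference was -0.92 ± 0.59 and did not pass (adjusted p = 0.39; 95% interval -2.17 to 0.32). FOSL1, an AP-1 subunit induced by ERK, had 0.85 and 0.59 CPM under WZ4002 and 128 and 118 CPM under vehicle in GR2 and 0.49 and 0.54 CPM under WZ4002 and 23.6 and 22.1 CPM under vehicle in parental cells. Its difference of -2.20 ± 0.93 did not pass (adjusted p = 0.18), although it did in the fit of the 8 libraries alone (adjusted p = 0.0035). EPHA2, an ephrin receptor, had 28.2 and 32.7 CPM under WZ4002 and 374 and 361 CPM under vehicle in GR2 and 41.2 and 59.6 CPM under WZ4002 and 161 and 178 CPM under vehicle in parental cells, a difference of -1.80 ± 0.33 (adjusted p = 0.005) that was lost with the column-run term (adjusted p = 0.22). None of the 12 AP-1 and immediate-early genes tested was called, against 6.79% of all genes (median difference 0.15).

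The response of EGFR itself had no called difference. EGFR had 976 and 1281 CPM under WZ4002 and 1278 and 1129.6 CPM under vehicle in GR2 and 823 and 1202 CPM under WZ4002 and 658 and 554 CPM under vehicle in parental cells, a difference of -0.82 ± 0.35 (adjusted p = 0.17; 95% interval -1.56 to -0.09). Under vehicle GR2 held more EGFR (0.99 ± 0.24, adjusted p = 0.012), and under WZ4002 the groups overlapped. Of the 14 EGFR family genes tested 2 ligands were called, both negative (3.45% of all genes were) and at the vehicle level. EREG, the ligand epiregulin, had 4.58 and 3.5 CPM under WZ4002 and 37.3 and 29.9 CPM under vehicle in GR2 and 5.05 and 5.33 CPM under WZ4002 and 4.16 and 6.63 CPM under vehicle in parental cells, a difference of -2.76 ± 0.68 (adjusted p = 0.025). The EREG call was lost without any 1 of the 8 libraries except WZ4002-treated GR2 replicate 1, WZ4002-treated parental replicate 1 and vehicle-treated parental replicate 2 (adjusted p = 0.057 to 0.11), at a pseudocount of 0.1 (adjusted p = 0.078) and with the column-run term (adjusted p = 0.32). NRG1, the ligand of ERBB3 and ERBB4, had 0.04 and 0.03 CPM under WZ4002 and 1.49 and 1.18 CPM under vehicle in GR2 and 0.03 and 0.02 CPM under WZ4002 and 0.14 and 0.03 CPM under vehicle in parental cells, a difference of -1.09 ± 0.22 (adjusted p = 0.0078). It was lost without vehicle-treated GR2 replicate 1 (adjusted p = 0.052) and with limma-voom on the recovered reads (adjusted p = 0.083). HBEGF, the heparin-binding ligand, had at most 1.47 CPM in any WZ4002-treated library, against 177 and 158 CPM in vehicle-treated GR2 and 37.1 and 27.1 CPM in vehicle-treated parental cells. Its difference of -2.24 ± 0.72 did not pass (adjusted p = 0.075), although it did in the fit of the 8 libraries alone (adjusted p = 0.0083), where 4 members of the family were called negative.

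Among other receptor kinases and their ligands, 3 of 10 tested were called, all negative (3.45% of all genes were) and at both levels. MET, the HGF receptor, had 46.5 and 37.4 CPM under WZ4002 and 259.7 and 244 CPM under vehicle in GR2 and 55.8 and 91.4 CPM under WZ4002 and 158 and 117 CPM under vehicle in parental cells. MET fell under WZ4002 in both and fell further in GR2, a difference of -1.64 ± 0.30 (adjusted p = 0.0049) that was lost with the column-run term (adjusted p = 0.064). AXL had 5.36 and 2.69 CPM under WZ4002 and 31.2 and 30.6 CPM under vehicle in GR2 and 5.94 and 8.81 CPM under WZ4002 and 15.8 and 12.3 CPM under vehicle in parental cells, a difference of -1.86 ± 0.39 (adjusted p = 0.01), lost without WZ4002-treated GR2 replicate 2 (adjusted p = 0.054). GAS6, the AXL ligand, had 3.48 and 1.96 CPM under WZ4002 and 8.29 and 9.55 CPM under vehicle in GR2 and 9.58 and 16.7 CPM under WZ4002 and 4.32 and 3.79 CPM under vehicle in parental cells. GAS6 moved down in GR2 and up in parental cells, a difference of -2.88 ± 0.49 (adjusted p = 0.0032) that was lost with the column-run term (adjusted p = 0.14). Both members of this ligand and receptor pair thus had a more negative response in GR2.

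Of 16 FOXO targets and PI3K brakes tested, 11 rose under WZ4002 in GR2 (27.4% of all genes did) and 13 in parental cells (25.1% of all genes did). A called difference was seen in 3 of the 16, against 6.79% of all genes. DEPP1, a FOXO target linked to autophagy, had 267 and 295 CPM under WZ4002 and 3.07 and 2.58 CPM under vehicle in GR2 and 154 and 150.2 CPM under WZ4002 and 14.5 and 14.6 CPM under vehicle in parental cells. The difference was 2.90 ± 0.51 (adjusted p = 0.0039), mostly from a lower vehicle level in GR2 (-2.03 ± 0.36), and was lost with the column-run term (adjusted p = 0.08). INSR, the insulin receptor, had 86.02 and 119.5 CPM under WZ4002 and 15.3 and 13.5 CPM under vehicle in GR2 and 63.4 and 63.6 CPM under WZ4002 and 22.1 and 19.3 CPM under vehicle in parental cells, a difference of 1.16 ± 0.29 (adjusted p = 0.024). It was lost without any 1 of the 8 libraries except WZ4002-treated GR2 replicate 1, WZ4002-treated parental replicate 1 and vehicle-treated parental replicate 2 (adjusted p = 0.052 to 0.12) and with the column-run term (adjusted p = 0.27). DEPP1 and INSR both differed at both levels. KLF9, a Krüppel-like factor, had a negative difference of -1.37 ± 0.39 (adjusted p = 0.044) at the vehicle level (share 83.9%). It had 5.57 and 7.05 CPM under WZ4002 and 15.9 and 13.7 CPM under vehicle in GR2. Parental KLF9 was 5.14 and 10.7 CPM under WZ4002 and 5.65 and 6.57 CPM under vehicle. The KLF9 call was lost without any 1 of the 8 libraries except WZ4002-treated parental replicate 1 (adjusted p = 0.078 to 0.17), at a pseudocount of 0.1 (adjusted p = 0.054), without the filter (adjusted p = 0.06), in the fit of the 8 libraries alone (adjusted p = 0.093) and with the column-run term (adjusted p = 0.77).

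The BCL2 family, whose balance sets the threshold of mitochondrial apoptosis, had 2 called members of 15 tested, against 6.79% of all genes. BCL2L11, which encodes BIM, had 83.5 and 75.2 CPM under WZ4002 and 12.3 and 13.3 CPM under vehicle in GR2. Parental BCL2L11 was 52.6 and 42.04 CPM under WZ4002 and 17.1 and 18.6 CPM under vehicle. Under WZ4002 both GR2 libraries were above both parental ones, and under vehicle both were below. The difference was 1.19 ± 0.25 (adjusted p = 0.011), of which the vehicle libraries gave 38.0%, and the call was lost without vehicle-treated GR2 replicate 1 (adjusted p = 0.059) and with the column-run term (adjusted p = 0.28). BCL2L2, the survival member BCL-w, had a difference of -0.67 ± 0.18 (adjusted p = 0.035) from a higher vehicle level in GR2 (0.53 ± 0.13). The BCL2L2 call was lost without any 1 of the 8 libraries except WZ4002-treated parental replicate 1 (adjusted p = 0.058 to 0.15), in the fit of the 8 libraries alone (adjusted p = 0.07) and with the column-run term (adjusted p = 0.49). MCL1, another survival member, had 217 and 223 CPM under WZ4002 and 215 and 202 CPM under vehicle in GR2 and 206 and 168 CPM under WZ4002 and 134 and 127 CPM under vehicle in parental cells, and its difference of -0.44 ± 0.18 did not pass (adjusted p = 0.17; 95% interval -0.82 to -0.05).

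Most proliferation genes fell under WZ4002 in both populations. Of 23 DNA replication genes, 22 fell in GR2 and 22 in parental cells, and of 20 mitosis genes 19 fell in each, against 28.3% of all genes in GR2 and 22.3% in parental cells. In neither list did a member have a called difference, where 6.79% of all genes had one (median -0.14 for replication and -0.26 for mitosis). The WZ4002-treated libraries of a pair differed widely in mitosis genes. CDK1, the mitotic kinase, had 28.5 and 6.07 CPM under WZ4002 and 144 and 141 CPM under vehicle in GR2 and 6.58 and 30.4 CPM under WZ4002 and 94.96 and 64.3 CPM under vehicle in parental cells, and its difference of -0.96 ± 0.92 turned positive without WZ4002-treated GR2 replicate 2 (0.074) and without WZ4002-treated parental replicate 2 (0.069). Over the fits that left out a library or changed a setting, the mitosis median ranged between -1.13 and 0.63.

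The integrated stress response, through which ATF4 raises amino acid transport and synthesis, fell under WZ4002 in 14 of 17 tested genes in GR2 (28.3% of all genes did) and in 13 in parental cells (22.3% did). The difference was negative in 15 of the 17 (median -0.51), and under vehicle 6 of the 17 were higher in GR2 and none lower. SLC7A11, the cystine transporter, had a called difference (1 of 17, against 6.79% of all genes). It had 27.6 and 21.2 CPM under WZ4002 and 815 and 703 CPM under vehicle in GR2 and 49.9 and 14.5 CPM under WZ4002 and 192 and 203 CPM under vehicle in parental cells, a difference of -2.09 ± 0.60 (adjusted p = 0.049) at the vehicle level. The SLC7A11 call was lost without any 1 of the 8 libraries except WZ4002-treated parental replicate 2 (adjusted p = 0.077 to 0.17), at a pseudocount of 0.1 (adjusted p = 0.055), without the filter (adjusted p = 0.068), in the fit of the 8 libraries alone (adjusted p = 0.1), with limma-voom on the recovered reads (adjusted p = 0.079) and with the column-run term (adjusted p = 0.07). ASNS, asparagine synthetase, had 6.17 and 4.59 CPM under WZ4002 and 268 and 258 CPM under vehicle in GR2 and 6.67 and 7.03 CPM under WZ4002 and 104 and 79.2 CPM under vehicle in parental cells, and its difference of -1.83 ± 0.60 did not pass (adjusted p = 0.079). In the fit of the 8 libraries alone 4 members of the list were called negative, ASNS among them (adjusted p = 0.0091).

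All 18 cholesterol synthesis genes had a positive difference (median 0.95; 7191 of all 15485 were positive), and none was called, where 6.79% of all genes were. WZ4002 raised 15 of the 18 in GR2 (27.4% of all genes) and 2 in parental cells (25.1% of all genes), and none fell in either. INSIG1, the sterol sensor partner, had 261 and 267 CPM under WZ4002 and 46.2 and 50.6 CPM under vehicle in GR2 and 338 and 122 CPM under WZ4002 and 101 and 96.96 CPM under vehicle in parental cells, and the WZ4002-treated parental libraries lay far apart. Without WZ4002-treated parental replicate 1, 13 of the 18 had a called positive difference. The INSIG1 difference passed in that fit (adjusted p = 0.0092), and with the column-run term it was -0.17. With that term the median of the list was -0.43. None of the 14 glycolysis genes was called, against 6.79% of all genes (median 0.16, and -0.24 with the column-run term).

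Matrix, adhesion and proteolysis genes, the list with the most genes tested, held the largest number of called differences among the lists. Larger shares were called of the NF-kB and cytokine genes, the YAP targets and the other receptor kinases. Of 24 tested 7 were called and all were negative (3.45% of all genes tested were), 5 at the vehicle level and 2 at both levels. The median difference was -0.86, and under vehicle 13 of the 24 were higher in GR2 and 4 lower. Besides COL8A1 and LAMA3 they included LAMB3, the beta chain of laminin-332, ITGA2, an integrin subunit that binds collagen, COL13A1, a transmembrane collagen, and PLAU, the urokinase protease. LAMB3 had 151 and 106 CPM under WZ4002 and 341 and 336 CPM under vehicle in GR2 and 195 and 161 CPM under WZ4002 and 196 and 163 CPM under vehicle in parental cells, a difference of -1.40 ± 0.31 (adjusted p = 0.014) that was lost without WZ4002-treated GR2 replicate 2 (adjusted p = 0.075), vehicle-treated GR2 replicate 1 (adjusted p = 0.062) and vehicle-treated parental replicate 2 (adjusted p = 0.061) and with the column-run term (adjusted p = 0.11). In vehicle-treated GR2 LAMA3 and LAMB3 were above every other group. PLAU had 51.7 and 65.02 CPM under WZ4002 and 314 and 317 CPM under vehicle in GR2 and 84.4 and 97.99 CPM under WZ4002 and 114 and 103 CPM under vehicle in parental cells, a difference of -2.17 ± 0.44 (adjusted p = 0.0085), lost with the column-run term (adjusted p = 0.25). ITGA2 had 20.1 and 22.1 CPM under WZ4002 and 439 and 399 CPM under vehicle in GR2 and 21.3 and 19.2 CPM under WZ4002 and 164 and 172 CPM under vehicle in parental cells. Its difference of -1.26 ± 0.34 (adjusted p = 0.036) was lost without any 1 of the 8 libraries (adjusted p = 0.059 to 0.14), with limma-voom on the recovered reads (adjusted p = 0.075) and with the column-run term (adjusted p = 0.29). COL13A1 differed by -1.38 ± 0.39 (adjusted p = 0.045), lost without any 1 of the 8 libraries (adjusted p = 0.054 to 0.13), at a pseudocount of 0.1 (adjusted p = 0.25), without the filter (adjusted p = 0.06), with limma-voom on the recovered reads (adjusted p = 0.57) and with the column-run term (adjusted p = 0.21).

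YAP targets, genes of the Hippo pathway effector that overlap with adhesion and AXL signalling, were negative in 9 of 9 tested (median -0.94; 8294 of all 15485 were negative). AJUBA, F3 and AXL, 3 of the 9, were called negative, against 3.45% of all genes. AJUBA, a LIM-domain protein of adherens junctions, had 17.03 and 13.7 CPM under WZ4002 and 43.5 and 38.5 CPM under vehicle in GR2 and 19.2 and 26.5 CPM under WZ4002 and 17.7 and 16.4 CPM under vehicle in parental cells, a difference of -1.74 ± 0.33 (adjusted p = 0.0056) that was lost with the column-run term (adjusted p = 0.23). F3, tissue factor, had 64.6 and 70.8 CPM under WZ4002 and 119 and 120.0 CPM under vehicle in GR2 and 83.97 and 109 CPM under WZ4002 and 65.5 and 60.03 CPM under vehicle in parental cells, a difference of -1.42 ± 0.36 (adjusted p = 0.028). The F3 call was lost without any 1 of the 8 libraries except WZ4002-treated parental replicate 1 (adjusted p = 0.064 to 0.099) and with the column-run term (adjusted p = 0.58).

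Epithelial genes had 5 called differences among 18 tested. All 5 were positive (3.34% of all genes tested were), 4 of them at the vehicle level. KRT8, a simple-epithelium keratin, had 2426 and 2169 CPM under WZ4002 and 529.6 and 566 CPM under vehicle in GR2 and 2246 and 2725 CPM under WZ4002 and 1216 and 1105 CPM under vehicle in parental cells. Under WZ4002 the populations were close, and under vehicle GR2 had less (-1.08 ± 0.16). The KRT8 difference was 0.97 ± 0.22 (adjusted p = 0.016), lost without WZ4002-treated GR2 replicate 1 (adjusted p = 0.061), vehicle-treated GR2 replicate 1 (adjusted p = 0.087), vehicle-treated GR2 replicate 2 (adjusted p = 0.051) and vehicle-treated parental replicate 1 (adjusted p = 0.064) and with the column-run term (adjusted p = 0.14). KRT18, its partner, had 767 and 693 CPM under WZ4002 and 269 and 285 CPM under vehicle in GR2 and 615 and 680.3 CPM under WZ4002 and 497 and 394 CPM under vehicle in parental cells, a difference of 0.85 ± 0.23 (adjusted p = 0.038) that was lost without any 1 of the 8 libraries except vehicle-treated parental replicate 2 (adjusted p = 0.053 to 0.15), without the filter (adjusted p = 0.051), in the fit of the 8 libraries alone (adjusted p = 0.052) and with the column-run term (adjusted p = 0.33). KRT8 and KRT18 have many processed pseudogenes, whose reads the counting could share. TJP3, the tight-junction protein ZO-3, had 94.1 and 108 CPM under WZ4002 and 10.8 and 11.9 CPM under vehicle in GR2 and 88.9 and 91.3 CPM under WZ4002 and 28.6 and 37.2 CPM under vehicle in parental cells, a difference of 1.61 ± 0.43 (adjusted p = 0.036). Its call was lost without any 1 of the 8 libraries (adjusted p = 0.055 to 0.13) and with the column-run term (adjusted p = 0.22). CLDN3, a claudin, had 22.99 and 32.1 CPM under WZ4002 and 1.19 and 1.38 CPM under vehicle in GR2 and 21.03 and 37.5 CPM under WZ4002 and 4.77 and 6.22 CPM under vehicle in parental cells, a difference of 1.45 ± 0.39 (adjusted p = 0.037), lost without any 1 of the 8 libraries except WZ4002-treated GR2 replicate 1 and WZ4002-treated parental replicate 2 (adjusted p = 0.058 to 0.16), without the filter (adjusted p = 0.051) and in the fit of the 8 libraries alone (adjusted p = 0.077). CDH1, E-cadherin, differed at both levels by 0.88 ± 0.24 (adjusted p = 0.036), with 260.2 and 229 CPM under WZ4002 and 155 and 145 CPM under vehicle in GR2 and 195 and 135 CPM under WZ4002 and 183 and 185 CPM under vehicle in parental cells. The CDH1 call was lost without any 1 of the 8 libraries except WZ4002-treated parental replicate 1 (adjusted p = 0.065 to 0.12), in the fit of the 8 libraries alone (adjusted p = 0.073) and with the column-run term (adjusted p = 0.73). Of 7 mesenchymal genes tested ZEB1, a repressor of E-cadherin, was called negative (1 of 7, against 3.45% of all genes). It had 0.18 and 0.39 CPM under WZ4002 and 1.09 and 1.03 CPM under vehicle in GR2 and 0.37 and 0.27 CPM under WZ4002 and 0.14 and 0.33 CPM under vehicle in parental cells, a difference of -0.78 ± 0.23 (adjusted p = 0.05). ZEB1 was lost without any 1 of the 8 libraries (adjusted p = 0.068 to 0.17), at a pseudocount of 0.1 (adjusted p = 0.072), with the replicate block (adjusted p = 0.053), in the fit of the 8 libraries alone (adjusted p = 0.066), with limma-voom on the recovered reads (adjusted p = 0.11) and with the column-run term (adjusted p = 0.17).

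Of 14 mucin and alveolar genes tested MUC1 and HOPX were called, both positive (2 of 14, against 3.34% of all genes). A positive difference was seen in 12 of the 14 (median 0.58), against 7191 of all 15485. HOPX, a homeodomain-only protein of alveolar type 1 cells, had 6.53 and 7.55 CPM under WZ4002 and 1.09 and 0.92 CPM under vehicle in GR2 and 3.8 and 7.13 CPM under WZ4002 and 3.33 and 4.23 CPM under vehicle in parental cells, a difference of 1.61 ± 0.29 (adjusted p = 0.004). Vehicle-treated GR2 was below the other groups, and the call was kept in all 16 alternatives.

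Among 14 interferon-stimulated genes, IRF1 and ISG15 were called, both positive (2 of 14, against 3.34% of all genes; median of the list 0.18). ISG15, a ubiquitin-like protein, had 9.3 and 7.44 CPM under WZ4002 and 2.46 and 2.53 CPM under vehicle in GR2 and 5.6 and 6.16 CPM under WZ4002 and 3.63 and 4.66 CPM under vehicle in parental cells, a difference of 0.99 ± 0.27 (adjusted p = 0.04). It was lost without any 1 of the 8 libraries (adjusted p = 0.051 to 0.15), without the filter (adjusted p = 0.051), in the fit of the 8 libraries alone (adjusted p = 0.058) and with the column-run term (adjusted p = 0.098). IFIT2 had 13.02 and 12.6 CPM under WZ4002 and 4.76 and 4.16 CPM under vehicle in GR2 and 17.2 and 31.9 CPM under WZ4002 and 4.1 and 4.5 CPM under vehicle in parental cells, and its difference of -0.87 ± 0.35 passed only without WZ4002-treated parental replicate 1 (adjusted p = 0.018). Of 14 antigen presentation and checkpoint genes VTCN1, TAPBP and PSMB9 were called, all positive (3 of 14, against 3.34% of all genes). PSMB9, an immunoproteasome subunit, had 12.4 and 12.3 CPM under WZ4002 and 0.5 and 0.86 CPM under vehicle in GR2 and 2.14 and 4.71 CPM under WZ4002 and 0.69 and 0.25 CPM under vehicle in parental cells, a drug-level difference of 1.46 ± 0.40 (adjusted p = 0.041). The PSMB9 call was lost without any 1 of the 8 libraries except WZ4002-treated parental replicate 2 (adjusted p = 0.055 to 0.18), at a pseudocount of 0.1 (adjusted p = 0.17), without the filter (adjusted p = 0.056), in the fit of the 8 libraries alone (adjusted p = 0.083), with limma-voom on the recovered reads (adjusted p = 0.34) and with the column-run term (adjusted p = 0.095). TAPBP, the peptide-loading chaperone tapasin, had 381 and 425 CPM under WZ4002 and 93.6 and 83.8 CPM under vehicle in GR2 and 272 and 292 CPM under WZ4002 and 103 and 123 CPM under vehicle in parental cells, a difference of 0.86 ± 0.21 (adjusted p = 0.021) that was lost without WZ4002-treated GR2 replicate 2 (adjusted p = 0.09), vehicle-treated GR2 replicate 1 (adjusted p = 0.056), vehicle-treated GR2 replicate 2 (adjusted p = 0.094) and vehicle-treated parental replicate 2 (adjusted p = 0.093) and with the column-run term (adjusted p = 0.078).

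Of 12 NF-kB and cytokine genes tested 5 were called, against 6.79% of all genes, and in both directions. The cytokines IL1A, IL1B and LIF had negative differences at the vehicle level, and the feedback inhibitor NFKBIA and the chemokine CXCL1 had positive ones at both levels. IL1B, interleukin-1 beta, had 0.14 and 0.06 CPM under WZ4002 and 3.59 and 4.25 CPM under vehicle in GR2 and 0.06 and 0.04 CPM under WZ4002 and 0.47 and 1.04 CPM under vehicle in parental cells, a difference of -1.44 ± 0.25 (adjusted p = 0.0034) that was lost at a pseudocount of 0.1 (adjusted p = 0.15), with limma-voom on the recovered reads (adjusted p = 0.43) and with the column-run term (adjusted p = 0.13). LIF, a cytokine of the interleukin-6 family, had 10.3 and 14.97 CPM under WZ4002 and 122 and 116 CPM under vehicle in GR2 and 12.3 and 17.2 CPM under WZ4002 and 41.6 and 40.9 CPM under vehicle in parental cells. The difference was -1.71 ± 0.30 (adjusted p = 0.004), lost with the column-run term (adjusted p = 0.19). NFKBIA had 38.1 and 42.98 CPM under WZ4002 and 18.2 and 20 CPM under vehicle in GR2 and 23.2 and 19.9 CPM under WZ4002 and 18.5 and 37.6 CPM under vehicle in parental cells, a difference of 1.33 ± 0.37 (adjusted p = 0.042). Its call was lost without any 1 of the 8 libraries except WZ4002-treated parental replicate 1 and vehicle-treated parental replicate 1 (adjusted p = 0.076 to 0.17), without the filter (adjusted p = 0.055), in the fit of the 8 libraries alone (adjusted p = 0.094) and with the column-run term (adjusted p = 0.21). CXCL1 stayed at or below 1.01 CPM in all 8 libraries, with a difference of 0.87 ± 0.23 (adjusted p = 0.034) that was lost without any 1 of the 8 libraries except WZ4002-treated parental replicate 1 and vehicle-treated parental replicate 1 (adjusted p = 0.071 to 0.13), at a pseudocount of 0.1 (adjusted p = 0.059), in the fit of the 8 libraries alone (adjusted p = 0.11) and with the column-run term (adjusted p = 0.37).

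**Figure D4:**
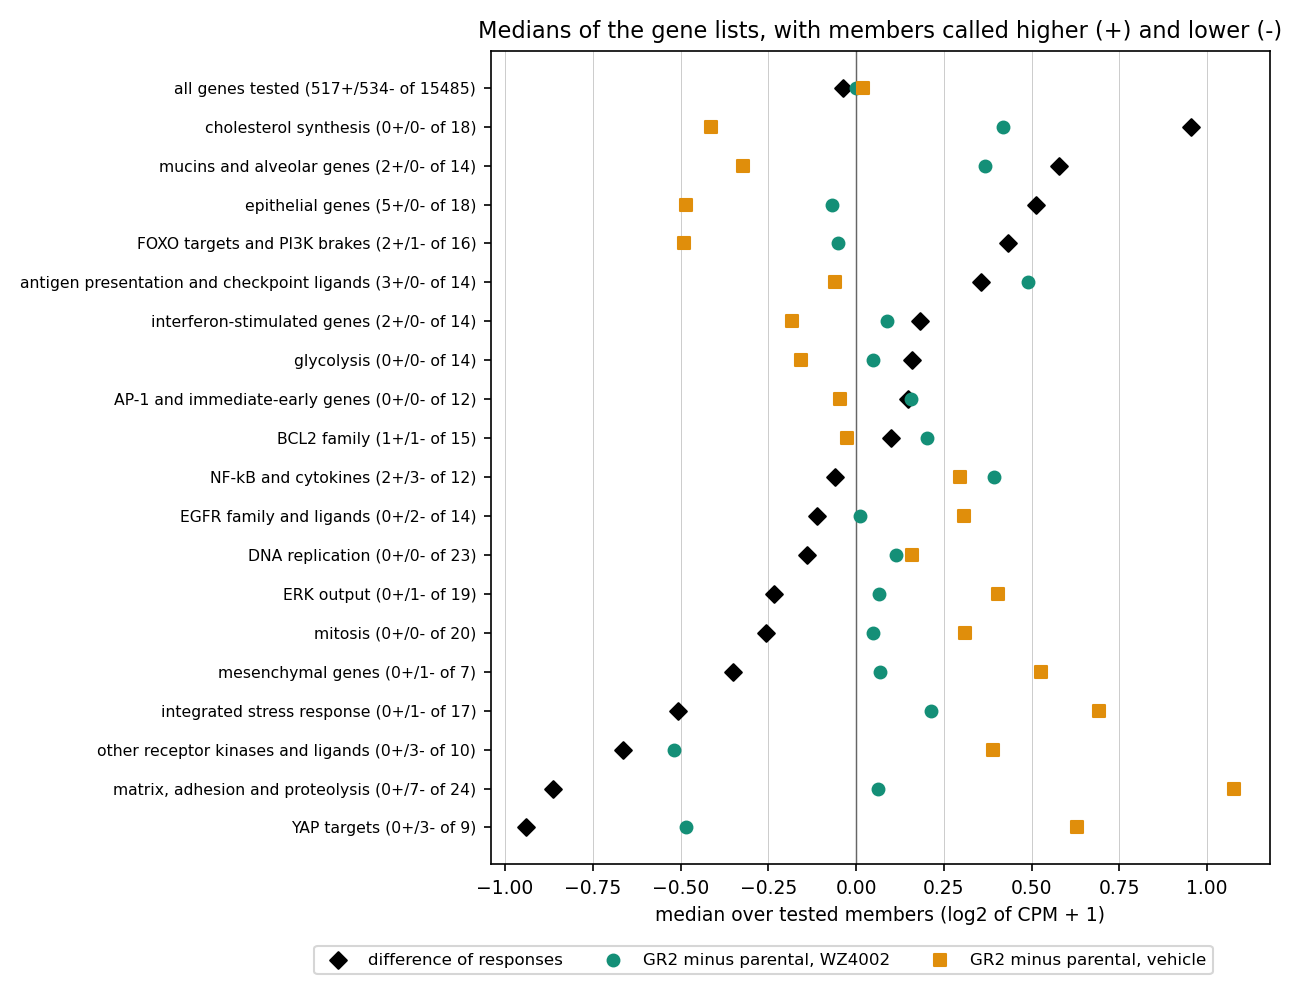
Median over the tested members of each gene list of the difference of responses (black diamonds), the GR2 minus parental difference under WZ4002 (green circles) and the same under vehicle (orange squares), in log2(CPM + 1). Counts of members called positive and negative stand beside each name, and the median of all genes tested is on top. Matrix, YAP and stress response lists lie to the left with vehicle medians to the right, and epithelial and mucin lists the other way.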

How the data were processed

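Polyadenylated RNA was extracted on columns and made into libraries with a directional kit, per the labels' protocols. The submitters' processing notes name STAR, HTSeq and hg19, without versions. Whether the counting used strand is not given in the sources used here, so a gene and an overlapping antisense gene cannot be told apart. The table deposited by the authors holds CPM, read counts of each gene scaled to the library total and rounded to 2 decimals, for 17165 genes in 22 libraries, none at 0. Symbols were matched to 15962 of them, and 1203 keep an identifier only. Genes without reads in some library may have been left out, so genes silent in a group may be missing from the counts given. The CPM of 1 read was found from the steps of the values, which were whole multiples within 0.0051 CPM in every library and gave 23.6 to 49.6 M reads.

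Values were taken as log2(CPM + 1). A gene was tested (15485 were, 1680 were not) if 2 or more of the 22 libraries reached 1 CPM. A mean for each of the 11 groups was fitted with limma 3.58.1 under R 4.3.3, using empirical Bayes with a trend (residual degrees of freedom 11, prior degrees of freedom 4.8 at the median). The contrast took the GR2 response minus the parental response, with Benjamini-Hochberg adjustment over all genes and a threshold of 0.05. All 5 contrasts (the difference, each response and the GR2 minus parental difference under each treatment) came from this fit, and errors are its standard errors. The scripts were tested on simulated data.

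The genes named are, among called genes with a group mean of at least 5 CPM, the 10 largest differences each way, the 3 largest each way of each source class and of responses with opposite signs, in each list the 3 members of smallest p, and, in any case, MCL1, BCL2L11, DUSP6 and EGFR. Some genes that the rule names or that the lists hold are not reported here. Other called list members, and the families in the closing section, were added after their values were seen. The 20 lists are ERK output, AP-1 and immediate-early genes, EGFR family and ligands, other receptor kinases, FOXO targets, BCL2 family, DNA replication, mitosis, integrated stress response, glycolysis, cholesterol synthesis, interferon-stimulated genes, antigen presentation, NF-kB and cytokines, epithelial, mesenchymal, matrix, mucin and alveolar, YAP targets, and leukocyte, endothelial and fibroblast markers. The comparison and its lists were chosen with earlier results of these data known. Promoter stretches come from RefSeq (GRCh38.p14) and were used only as sequence. The 16 alternatives comprised another pseudocount (0.1), no filter, a filter of 5 CPM, median-of-ratios scaling, the replicate block, the 8 libraries alone, each of the 8 left out, limma-voom on the recovered reads and a term for the column runs. The voom fit and the column-run term were added after the data were seen.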

Additional observations from a re-analysis of the deposited data

Results flagged for a closer look

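The responses of GR2 and parental cells differed by the test of the difference itself in 1051 genes (6.79% of those tested). Among the named genes whose responses ran in opposite directions, with both responses past their own test, GR2 rose and parental cells fell in S100A8, by a difference of 4.023 on the log2(CPM + 1) scale, in SEMA6B by 3.411 and in ADORA1 by 3.048. GR2 fell and parental cells rose in CDK14, with a difference of -3.635, in ZNF469 with -3.106 and in GAS6 with -2.88. The calls of ADORA1 (adjusted p = 0.083), ZNF469 (adjusted p = 0.071) and GAS6 (adjusted p = 0.14) were lost with the column-run term, and those of S100A8, SEMA6B and CDK14 held in all 16 alternatives. Groups of 2 libraries are too small for a test of single outlying libraries.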

How the results depend on the processing

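Of the 1051 calls, 699 (66.5%) were shared by the fit of the 8 libraries alone and 784 (74.6%) by limma-voom. A pseudocount of 0.1, no filter, a filter of 5 CPM and median-of-ratios scaling shared 84.5% to 98.3%. The count of called differences stayed within 1.5 times of 1051 in these alternatives, of the 16 fitted. It was 1025 at a pseudocount of 0.1, 1033 without the filter and 941 of 11492 genes with a filter of 5 CPM. It was 1054 with median-of-ratios scaling, 921 in the fit of the 8 libraries alone and 892 with limma-voom. It was 328 to 1266 when 1 library was left out, of which 31.1% (without vehicle-treated GR2 replicate 1) to 74.8% (without WZ4002-treated parental replicate 1) of the 1051 were shared. With 1 library of a group left, that library is assumed to vary like the other groups. Over the same fits the genes called were 178 to 659 positive and 150 to 607 negative, 130 to 324 at the vehicle level, 44 to 295 at the drug level and 154 to 647 at both levels. GR2 minus parental called 312 to 1122 genes under WZ4002 and 769 to 2878 under vehicle, and the parental response 4840 to 7227.

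With the column-run term 338 genes were called, 219 positive and 119 negative, 152 at the vehicle level, 18 at the drug level and 168 at both levels, and the vehicle difference called 1449. With limma-voom 308 were negative and 82 lay at the drug level. Voom moved the median vehicle difference of all genes to -0.08, against 0.02, and the median difference of responses to 0.05, against -0.04. The listed genes held 64.2% and 63.0% of the library total in vehicle-treated GR2, against 59.7% and 58.2% in vehicle-treated parental cells. Under WZ4002 they held 61.2% and 62.8% in GR2 and 60.0% and 61.7% in parental cells. Whether these shares moved the medians was not tested.

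Of 108 genes followed, 80 were called; 18 of these were called in every alternative in which they were fitted, 62 lost the call in at least 1, and none of the 80 reversed. Reversed were 6 genes that were not called. Over the fits with 1 library left out CDK1 ranged between -1.98 and 0.074, CCNA2 between -1.78 and 0.235 and MAD2L1 between -1.02 and 0.133. With the column-run term CCND1 was 0.217, MAD2L1 0.102, CYP51A1 -0.298 and INSIG1 -0.173.

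A fit with the replicate number as a block called 1203 differences. Deviations of same-numbered libraries correlated between groups by -0.195 to 0.394, with no shared sign, so the numbers did not pair the libraries of all groups. The 0.394 was between WZ4002-treated GR2 and vehicle-treated parental cells, whose replicates 1 and 2 both stand in column runs 1 and 2. Whether libraries are paired by run was not tested. A test of the recovered reads with a quasi-likelihood count model, planned as an alternative, was not run, since the deposited unit is CPM. With 2 libraries a group, differences near the threshold rest on single libraries, and at 28.2 to 49.6 M reads a gene near 0.1 CPM is carried by a few reads, so its fold change is uncertain.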

Other observations

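Some gene families outside the lists, chosen after their values were seen, held called members, and the counts below stand beside 6.79% of all genes called (3.34% positive and 3.45% negative). Among 5 caveolins and cavins tested, the caveolae coat proteins CAV1 and CAV2 were called, both negative and both with responses of opposite sign. CAV2 had 46.6 and 35.5 CPM under WZ4002 and 77.2 and 73.5 CPM under vehicle in GR2 and 72.6 and 63.8 CPM under WZ4002 and 36.8 and 31.3 CPM under vehicle in parental cells, a difference of -1.86 ± 0.27 (adjusted p = 0.00093) called in all 16 alternatives. Vehicle-treated GR2 and WZ4002-treated parental libraries were the high ones. CAV1 had 114 and 64.3 CPM under WZ4002 and 203 and 199 CPM under vehicle in GR2 and 171 and 242 CPM under WZ4002 and 120.3 and 75.5 CPM under vehicle in parental cells, a difference of -2.30 ± 0.50 (adjusted p = 0.012) that was lost without WZ4002-treated GR2 replicate 2 (adjusted p = 0.067), vehicle-treated GR2 replicate 1 (adjusted p = 0.055) and vehicle-treated parental replicate 2 (adjusted p = 0.061) and with the column-run term (adjusted p = 0.071).

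Of 10 annexins tested 4 were called negative and ANXA6 positive. The negative calls of ANXA2 (adjusted p = 0.049) and ANXA5 (adjusted p = 0.048) were each lost in 12 of the 16 alternatives. ANXA10 had 0.04 and 0.03 CPM under WZ4002 and 4.11 and 3.76 CPM under vehicle in GR2 and 0.03 and 0.02 CPM under WZ4002 and 0.19 and 0.11 CPM under vehicle in parental cells, a vehicle-level difference of -2.09 ± 0.31 (adjusted p = 0.0013) that was lost with limma-voom on the recovered reads (adjusted p = 0.072). ANXA6 had 30.6 and 47.5 CPM under WZ4002 and 6.45 and 7.69 CPM under vehicle in GR2 and 18.8 and 25.5 CPM under WZ4002 and 10.1 and 8.95 CPM under vehicle in parental cells, a difference of 1.16 ± 0.32 (adjusted p = 0.039) lost without any 1 of the 8 libraries except WZ4002-treated GR2 replicate 1 and WZ4002-treated parental replicate 2 (adjusted p = 0.077 to 0.18), in the fit of the 8 libraries alone (adjusted p = 0.082) and with the column-run term (adjusted p = 0.053). Of 12 S100 genes tested 2 were called positive and 3 negative. The negative call of S100A13 was lost in 11 of the 16 alternatives and that of S100A14 in 6. S100A9, the partner of S100A8 in calprotectin, had 271 and 237 CPM under WZ4002 and 337 and 350.3 CPM under vehicle in GR2 and 87.5 and 99.6 CPM under WZ4002 and 632 and 709.9 CPM under vehicle in parental cells. It fell in parental cells (-2.83 ± 0.43) and in GR2 changed by -0.44 ± 0.43, a difference of 2.39 ± 0.60 (adjusted p = 0.027). The S100A9 call was lost without any 1 of the 8 libraries except WZ4002-treated parental replicate 2 (adjusted p = 0.054 to 0.1). S100A16 had 71.5 and 69.05 CPM under WZ4002 and 241 and 256 CPM under vehicle in GR2 and 93.98 and 104 CPM under WZ4002 and 181 and 197 CPM under vehicle in parental cells, a difference of -0.88 ± 0.18 (adjusted p = 0.0097) lost with the column-run term (adjusted p = 0.36). Of 16 semaphorins tested 2 were called positive, SEMA6B and SEMA5A, and 2 negative, SEMA3A (-1.92 ± 0.42) and SEMA3C (-1.16 ± 0.31). Both negative calls were lost with the column-run term (adjusted p = 0.27 for SEMA3A and 0.2 for SEMA3C) and in other alternatives.

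Of 16 aldehyde dehydrogenases tested, ALDH3B2 was called positive and 3 were called negative. The negative call of ALDH3A2 was lost in 9 of the 16 alternatives. ALDH3A1 had 146 and 68.02 CPM under WZ4002 and 497 and 513 CPM under vehicle in GR2 and 189 and 282 CPM under WZ4002 and 231 and 233 CPM under vehicle in parental cells, a difference of -2.33 ± 0.61 (adjusted p = 0.032). Its call was lost without any 1 of the 8 libraries except WZ4002-treated GR2 replicate 1 and WZ4002-treated parental replicate 1 (adjusted p = 0.084 to 0.15) and with the column-run term (adjusted p = 0.32). ALDH1A3, which makes retinoic acid from retinal, had 306 and 221 CPM under WZ4002 and 393 and 372 CPM under vehicle in GR2 and 227 and 599 CPM under WZ4002 and 189 and 151 CPM under vehicle in parental cells, where the WZ4002-treated libraries lay far apart. The ALDH1A3 difference was -1.68 ± 0.42 (adjusted p = 0.027), lost without WZ4002-treated GR2 replicate 2 (adjusted p = 0.12), vehicle-treated GR2 replicate 1 (adjusted p = 0.11), vehicle-treated GR2 replicate 2 (adjusted p = 0.076) and vehicle-treated parental replicate 2 (adjusted p = 0.099), in the fit of the 8 libraries alone (adjusted p = 0.12) and with the column-run term (adjusted p = 0.39). SEMA5A, a semaphorin with thrombospondin repeats, had 243 and 419 CPM under WZ4002 and 3.59 and 3.18 CPM under vehicle in GR2 and 218 and 249.6 CPM under WZ4002 and 12.2 and 21.1 CPM under vehicle in parental cells, a vehicle-level difference of 2.42 ± 0.56 (adjusted p = 0.018) lost without WZ4002-treated GR2 replicate 2 (adjusted p = 0.088), vehicle-treated GR2 replicate 1 (adjusted p = 0.063), vehicle-treated GR2 replicate 2 (adjusted p = 0.067) and vehicle-treated parental replicate 2 (adjusted p = 0.084).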
